A study of Mus musculus with 8 samples.

Results

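A set of 9 genes that sense double-stranded RNA or restrain that sensing was followed in a sorted cell fraction of the mouse fetal liver. The authors describe most of these cells as erythroid precursors, but markers of other cells were abundant too. The genes were 3 cytosolic receptors of the RIG-I-like family, Ifih1 (MDA5), Ddx58 (RIG-I) and Dhx58 (LGP2), the cofactor Trim25, the adaptor Mavs, the endosomal receptor Tlr3, the kinase Eif2ak2 (PKR), and the editing enzymes Adar and Adarb1. They were taken by gene name for their place in this pathway, and all 9 were found among the 52636 genes of the count table. All 9 passed the filter on low counts and were tested among 17378 genes. The cells were S0 cells, the lineage-negative fraction of fetal liver that carries neither CD71 nor Ter119, sorted at E12.5. RNAseq was performed on 4 wild type (WT) libraries and on 4 libraries lacking both Vps13a and Vps13c (DKO), 2 genes for bridge-like lipid transfer proteins. The mice were kept on a C57BL/6J background. DKO embryos carried the Vps13a tm1d allele, from which exon 6 was removed throughout the body with a β-actin-Cre transgene, together with a Vps13c-/- allele, and they came from interbreeding of Vps13a+/-/Vps13c-/- parents. That cross gives no WT embryo, so litter and genotype cannot be told apart here, and because no library lacking only Vps13c was analysed, the part of each gene cannot be told apart either. Each library is taken as 1 embryo, which the methods do not state for the RNAseq, so that the p-values measure the spread between libraries.

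Long double-stranded RNA is common in viral infection and scarce in the cytosol of healthy cells. MDA5 binds along long duplexes and RIG-I binds short duplex ends that carry a triphosphate, and both then pass the signal through their caspase recruitment domains to MAVS on the outer membrane of mitochondria. MAVS filaments recruit kinases that activate IRF3, IRF7 and NF-κB, and the type I interferon that follows raises the transcription of the receptors themselves. LGP2 lacks the signalling domain and tunes the other receptors. PKR halts translation when it binds duplex RNA, and ADAR1, the product of Adar, converts adenosine to inosine in self duplexes and so keeps MDA5 and PKR quiet. In the fetal liver, loss of ADAR1 editing is known to be lethal at midgestation through MDA5, with failing hematopoiesis.

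Library totals ran from 42114489 to 50886469 counts in WT and from 36981439 to 42587815 in DKO. Vps13a fell in DKO (log2 fold change -1.29, edgeR adjusted p = 0.00247), whereas Vps13c counts over the whole gene did not differ past the threshold (0.49, adjusted p = 0.182) and do not check the label. The erythroid regulators Klf1 and Gata1 were abundant in every library, at 9622 normalised counts or more and 6649 or more. WT means of the 9 erythroid markers ran from 515 for Alas2 to 16367 for Hbb-bs. Markers of other cells were also present, with WT means of 305522 for Afp, 98033 for Alb and 108147 for Mpo. Some of them differed between the groups, and their values stand beside the results below. The Y-linked gene Ddx3y was high in all WT libraries but, within DKO, only in replicate 3 (2516 normalised counts, where replicates 1, 2 and 4 had 41.0, 10.5 and 9.40). Xist, the transcript of the inactive X chromosome, reached no more than 30.1 normalised counts in any WT library, whereas the DKO libraries had 27043, 18029, 62.3 and 21393 in the order of their numbers (log2 fold change 10.46, edgeR adjusted p = 0.00626). By these 2 genes, named after their values were seen, all WT libraries were male and 3 of 4 DKO libraries female, so that sex and genotype cannot be told apart in the comparison of the groups, and the values of replicate 3 are also given on their own below.

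In DKO cells the receptors and the adaptor moved in opposite directions. Ifih1, Ddx58, Dhx58 and Adar were higher, Mavs was lower, and Trim25, Tlr3, Eif2ak2 and Adarb1 did not pass the test. Thus 4 of 9 members were higher at an adjusted p under 0.05, where 10.7% of all genes tested were, and 1 was lower, where 10.8% were. With the added demand of a log2 fold change beyond 1 in size, 3 members stayed higher (6.19% of all genes) and no member was lower (2.43%). The median log2 fold change of the members was 0.68, against 0.03 over all genes. That median is the estimate of Tlr3, a gene close to the detection limit. Without DKO replicate 1 the median of the members was 0.32. Estimates were positive for 8 of 9 members, with Trim25 among them at 0.01, and for 9147 of the 17378 genes tested. The all-gene split depended on scaling, with 1867 genes higher and 1878 lower under TMM and 2492 higher and 1242 lower under upper-quartile scaling, while the calls of 4 members higher and 1 lower held under both. With upper-quartile scaling the median of all genes moved to 0.14. Every DKO library stood above every WT library for 4 members, as for 13.5% of all genes, and every DKO library stood below for 1 member, as for 14.6%. Libraries of the other 4 members overlapped. The count of members higher was 2 without WT replicate 2, 3 or 4, which lost Ddx58 and Adar, and 5 without DKO replicate 4, which added Eif2ak2. Because these are bulk samples, fewer cells of a type and less RNA per cell cannot be told apart.

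**Figure D1:**
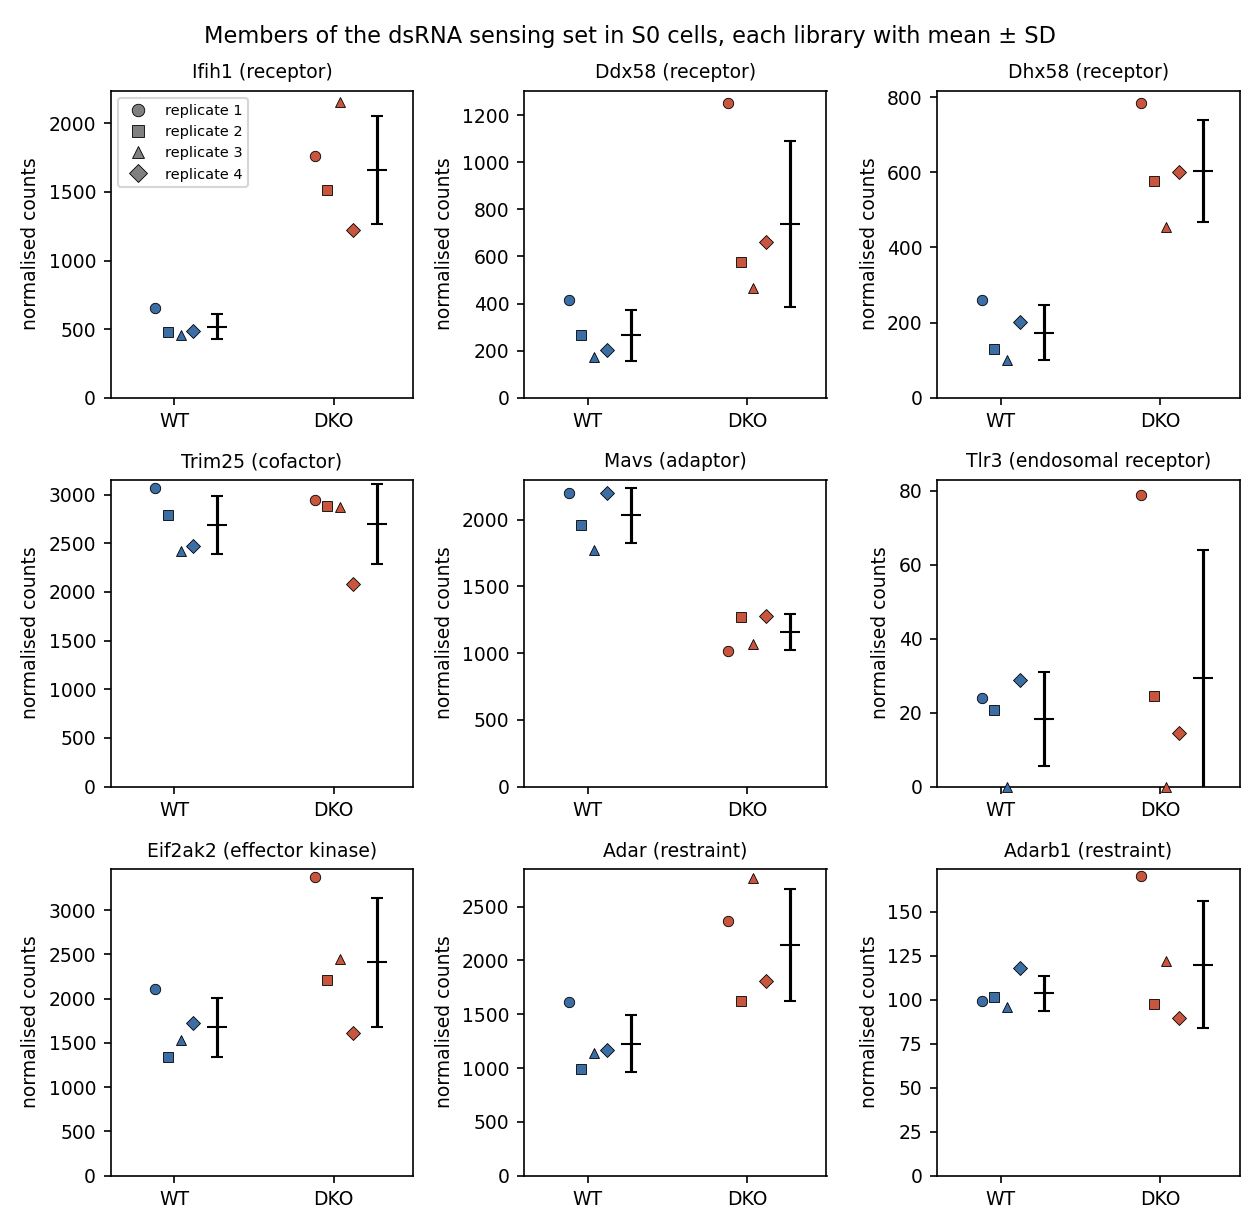
Normalised counts (counts scaled to a common library size) of the 9 members in each of the 4 WT and 4 DKO libraries, with a panel and a linear axis for each gene and the mean ± SD beside the points. Ifih1, Ddx58, Dhx58 and Adar have all DKO libraries above all WT libraries and Mavs has all of them below, while in the other 4 panels the groups overlap. The lower end of the Tlr3 bar in DKO falls under 0 and is not drawn.

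**Figure D2:**
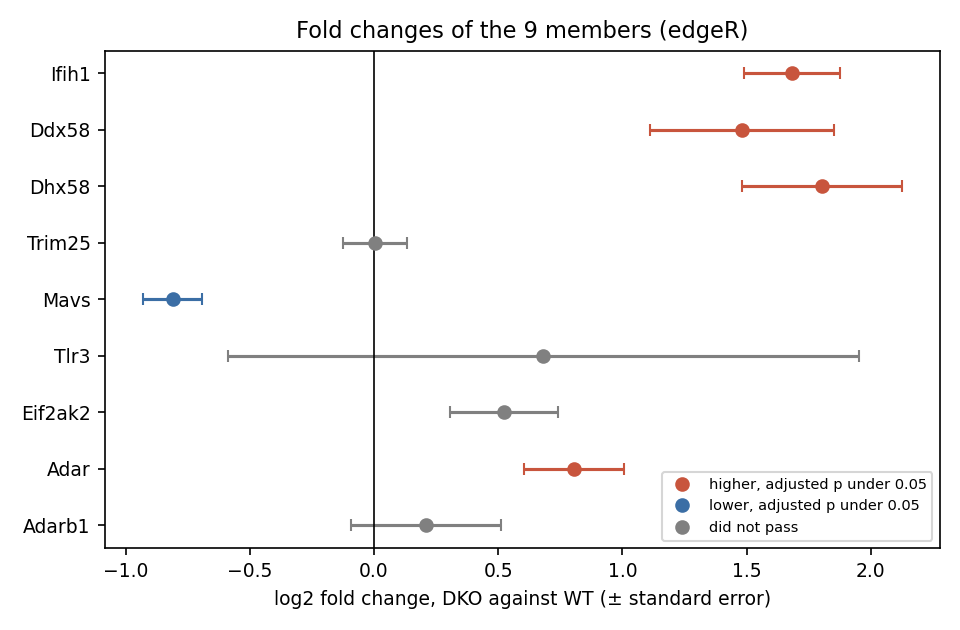
log2 fold change of DKO against WT for each member from edgeR, with its standard error. The 3 cytosolic receptors lie between 1.48 and 1.80, Adar at 0.81 and Mavs at -0.81, and the bar of Tlr3 spans 0.

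Ifih1 (ENSMUSG00000026896.14, chr2:62595798-62646255, minus strand, GRCm38) encodes MDA5, the sensor of long duplexes. It had 650.3, 481, 460 and 483 normalised counts in WT replicates 1 to 4, and 1760.0, 1515, 2154 and 1224 in DKO replicates 1 to 4. The lowest DKO library was above the highest WT library, WT replicate 1. In edgeR this was a log2 fold change of 1.68 ± 0.19 (SE) with an adjusted p of 0.00143, and the estimate ran from 1.54 to 1.81 over the fits that left out 1 library.

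Ddx58 (ENSMUSG00000040296.15, chr4:40203773-40239828, minus strand) encodes RIG-I, the sensor of triphosphate ends. It had 415, 265, 174 and 204 normalised counts in WT and 1250.4, 575, 465 and 659 in DKO. The groups did not overlap, but WT replicate 1 came close to DKO replicate 3, and DKO replicate 1 stood far above the other DKO libraries. The edgeR estimate was 1.48 ± 0.37 on the log2 scale (SE, adjusted p = 0.0213), and it was 1.10 with DKO replicate 1 left out (adjusted p = 0.0288). The call was lost without WT replicate 2, 3 or 4, with adjusted p-values of 0.0605, 0.0535 and 0.0707.

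Dhx58 (ENSMUSG00000017830.15, chr11:100694884-100704271, minus strand) encodes LGP2, which lacks the signalling domain of the other receptors. It had 261, 130.0, 99.9 and 202 normalised counts in WT and 784, 578, 454 and 600 in DKO. Again WT replicate 1 was the highest of its group and DKO replicate 1 the highest of its own, with a gap between the groups. Its difference of 1.80 ± 0.32 on the log2 scale (SE, edgeR adjusted p = 0.0065) was the largest of the 9 members in this fit and ranged from 1.61 to 2.07 with each library left out. The antisense gene Dhx58os, which shares 141 exon bases with it, had at most 6 counts in a library.

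Trim25 (ENSMUSG00000000275.16, chr11:88999376-89020293, plus strand) encodes a ubiquitin ligase that assists RIG-I. It had 3064, 2789, 2420 and 2471 normalised counts in WT and 2943, 2882, 2874 and 2085 in DKO. The groups overlapped fully, and only DKO replicate 4 stood apart, below the rest. Its log2 fold change was 0.01 ± 0.13 (SE, edgeR adjusted p = 0.983), and an interval of 2 standard errors ran from -0.25 to 0.26. The cofactor thus gave no change that passed the test, and a change of the size of Ifih1 lay outside its interval.

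Mavs (ENSMUSG00000037523.13, chr2:131234063-131248025, plus strand) encodes the adaptor that the receptors share. It had 2198, 1957, 1775 and 2201 normalised counts in WT and 1015, 1270.5, 1072 and 1279 in DKO. The highest DKO library was well below the lowest WT library, a pattern with little spread in either group. Mavs was 1.75-fold lower in DKO (-0.81 ± 0.12 on the log2 scale, SE, edgeR adjusted p = 0.00346). The value stayed between -0.88 and -0.75 with each library left out, with an adjusted p of at most 0.0178, and was -0.70 with upper-quartile scaling. Gene counts do not separate the long and short MAVS proteins made from this transcript.

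The ratio of each receptor to Mavs within a library does not depend on how libraries are scaled. Each receptor had all DKO libraries above all WT libraries, and Mavs had all of them below. The ratios to Mavs thus had to separate the groups, and their p-values are no further test. They give the size of the difference between receptor and adaptor. In all, 5 ratios between members were taken, and the log2 count ratios of the groups were compared by exact permutation (two-sided, 70 arrangements of the libraries), and 4 of them differed at p = 0.0286, the smallest that 4 against 4 libraries allow, or 0.0357 after Benjamini-Hochberg adjustment over the 5. Ifih1 counts per Mavs count were 0.296, 0.246, 0.259 and 0.220 in WT, and 1.73, 1.19, 2.01 and 0.957 in DKO. These counts do not rank the levels of the 2 genes, since Ifih1 has 8.165 kilobases of annotated exon and Mavs 3.345. Per kilobase of exon, Mavs was above Ifih1 in every library of both groups. In DKO replicates 1 to 4, Mavs had 303, 380, 320 and 382 normalised counts per kilobase and Ifih1 had 216, 185, 264 and 150. On the log2 scale the ratio moved from -1.98 ± 0.18 to 0.50 ± 0.49 (SD, n = 4 libraries each, exact permutation p = 0.0286), a 5.56-fold difference. The ratio of Ddx58 to Mavs rose 4.81-fold, from -3.02 ± 0.47 to -0.75 ± 0.71 on the log2 scale, and that of Dhx58 to Mavs rose 6.42-fold, from -3.64 ± 0.48 to -0.96 ± 0.40 (SD). For both, DKO replicate 1 had the highest ratio, at 1.23 Ddx58 counts and 0.772 Dhx58 counts per Mavs count, and no DKO library overlapped WT. With any 1 library left out, the log2 differences lay between 2.31 and 2.66 for Ifih1, 1.92 and 2.47 for Ddx58, and 2.49 and 2.87 for Dhx58.

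**Figure D3:**
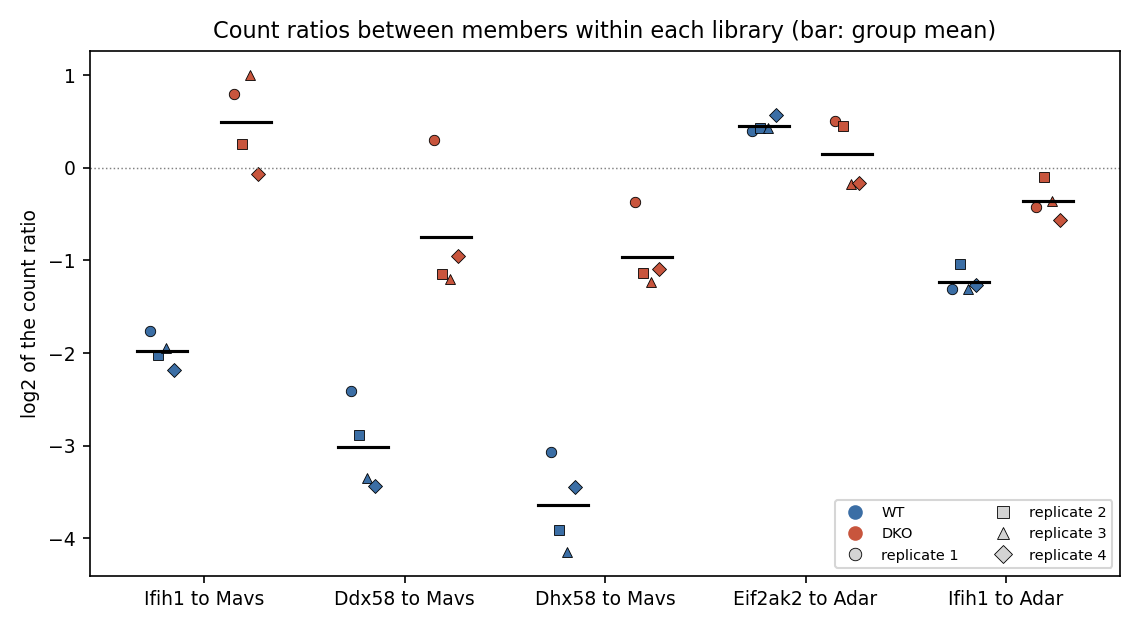
log2 of the count ratio between 2 members within each library, with a bar at each group mean. For the 3 ratios to Mavs and for Ifih1 to Adar every DKO library lies above every WT library, while for Eif2ak2 to Adar the groups overlap and DKO replicates 3 and 4 lie under 0.

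Tlr3 (ENSMUSG00000031639.12, chr8:45395665-45411080, minus strand) encodes the endosomal sensor of duplex RNA, which signals through TRIF and not through MAVS. It was close to the detection limit, with 0 to 75 counts in a library. In normalised counts it had 24.1, 20.7, 0 and 28.9 in WT and 78.8, 24.4, 0 and 14.6 in DKO. The groups overlapped, and a library of each was at 0. The estimate of 0.68 on the log2 scale had a standard error of 1.27 (edgeR adjusted p = 0.743) and an interval of 2 standard errors from -1.86 to 3.22, so a difference of the size seen for the cytosolic receptors was not detectable at this depth.

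Eif2ak2 (ENSMUSG00000024079.4, chr17:78852564-78882573, minus strand) encodes PKR, the kinase that phosphorylates eIF2α on binding duplex RNA. It had 2113, 1338, 1533 and 1724 normalised counts in WT and 3370, 2213, 2447 and 1614 in DKO. In all, 3 DKO libraries were above all WT libraries, and DKO replicate 4 lay inside the WT range. The difference of 0.52 ± 0.22 on the log2 scale (SE) did not pass (edgeR adjusted p = 0.115, unadjusted p = 0.0382). With DKO replicate 4 left out it was 0.68 and the adjusted p 0.0414, and with DKO replicate 1 left out they were 0.32 and 0.235. An opposite-strand gene, Gm26637, shares 174 exon bases with Eif2ak2 and had 175 to 310 counts, and whether the counting used strand is not given in the sources used here.

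Adar (ENSMUSG00000027951.16, chr3:89715022-89753446, plus strand) encodes the editing enzyme that marks self duplexes. It had 1608.5, 989.7, 1138 and 1164 normalised counts in WT and 2365, 1623, 2763 and 1812 in DKO. The groups were apart by a narrow margin, since WT replicate 1 nearly reached DKO replicate 2. The edgeR estimate was 0.81 ± 0.20 on the log2 scale (SE, adjusted p = 0.0209), and the call was lost without WT replicate 2, 3 or 4 (adjusted p = 0.0618, 0.0541 and 0.0635). Gene counts do not separate the interferon-inducible p150 form from the constitutive p110 form. Chrnb2, on the other strand, shares 1365 exon bases with Adar and had 32 to 189 counts.

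Adarb1 (ENSMUSG00000020262.15, chr10:77290726-77418270, minus strand) encodes ADAR2, an editing enzyme best known for recoding sites in neurons. It had 99.5, 102, 95.6 and 118 normalised counts in WT and 170.2, 97.6, 122 and 89.9 in DKO. The WT libraries lay close together inside the wider DKO range. The difference of 0.21 ± 0.30 on the log2 scale (SE, edgeR adjusted p = 0.661) had an interval of 2 standard errors from -0.39 to 0.81, whose upper end reached the change of Adar, so the data do not show that the 2 editing genes differed in their response.

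Sensor and restraint were also set against each other within libraries. Eif2ak2 counts per Adar count were 1.31, 1.35, 1.35 and 1.48 in WT and 1.42, 1.36, 0.886 and 0.891 in DKO. WT libraries were nearly alike, while DKO replicates 1 and 2 were inside the WT range and replicates 3 and 4 below it. The log2 ratio was 0.46 ± 0.08 in WT, against 0.15 ± 0.38 for DKO (SD, 4 libraries each, exact permutation p = 0.286, the same after adjustment over 5 ratios). Ifih1 counts per Adar count were 0.404, 0.486, 0.404 and 0.415 in WT and 0.744, 0.933, 0.780 and 0.675 in DKO. Ifih1 thus rose more than Adar, by 1.82-fold, from -1.23 ± 0.13 to -0.36 ± 0.20 on the log2 scale (SD, n = 4 each, exact permutation p = 0.0286), and the difference stayed between 0.78 and 0.94 with each library left out.

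To compare levels between members, normalised counts were divided by the kilobases of annotated exon of each gene. In WT the order by mean level was Mavs (608 ± 61.8 normalised counts per kilobase, SD), Trim25 (467 ± 52.2), Eif2ak2 (328 ± 64.7), Adar (151 ± 32.9), Ifih1 (63.5 ± 10.8), Dhx58 (52.9 ± 22.1), Ddx58 (37.5 ± 15.2), Adarb1 (9.20 ± 0.88) and Tlr3 (3.53 ± 2.44). The adaptor, cofactor, kinase and editor were thus above the 3 cytosolic receptors in WT cells. Neighbours whose WT libraries overlapped, and whose order is therefore unsure, were Mavs and Trim25, Ifih1 and Dhx58, and Dhx58 and Ddx58. In DKO the order became Eif2ak2 (472 ± 143), Trim25 (469 ± 71.0), Mavs (347 ± 40.5), Adar (264 ± 64.2), Ifih1 (204 ± 48.2), Dhx58 (185 ± 41.6), Ddx58 (105 ± 49.8), Adarb1 (10.6 ± 3.21) and Tlr3 (5.66 ± 6.60). There every pair of neighbours overlapped except Ddx58 and Adarb1. The longest annotated transcript in place of all exons gave the same order of the 9 genes in WT.

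All members with a promoter window, higher in DKO or not, were searched for a shared element. RefSeq promoter windows (GRCm38.p6, 250 bases before and 50 after each start) were found for 8 members, and for Dhx58 there was none. The letters searched on both strands were GAAANNGAAA and GAAANGAAA, the repeats that make up the core of interferon-response elements, where N is any base. Of 32851 windows in the mouse table, 3.44% held GAAANNGAAA, 3.17% held GAAANGAAA and 6.27% held either, and 7.27% of 27025 genes had a window with either. Of the 8 members, 4 had a window with a match, Ifih1, Ddx58, Eif2ak2 and Adar, and the windows of Trim25, Mavs, Tlr3 and Adarb1 held neither. Adar has 3 windows, and the match was in window 3. The matched stretches are shown because 3 of the 4 genes rose and Eif2ak2 had 3 of 4 DKO libraries above WT. Each is printed on the strand of its gene with the matched letters in capitals, at chr2:62646206-62646235 (minus) for Ifih1, chr4:40239866-40239895 and chr4:40239804-40239833 (minus) for the first and second stretch of Ddx58, chr17:78882535-78882564 (minus) for Eif2ak2 and chr3:89730736-89730765 (plus) for Adar.
Ifih1: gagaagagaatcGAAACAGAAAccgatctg
Ddx58 first: tctaggttcaGAAACGAAActggatccccg
Ddx58 second: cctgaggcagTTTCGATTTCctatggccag
Eif2ak2: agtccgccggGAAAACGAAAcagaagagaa
Adar: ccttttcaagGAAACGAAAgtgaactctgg

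The match of Ifih1 lay 32 to 41 bases after the start, that of Eif2ak2 18 to 27 after it and that of Adar 28 to 36 after the start of window 3, whereas Ddx58 had a match at -60 to -52 from its start and a match to the other strand 2 to 11 bases after it. These are letter matches only and say nothing of whether a factor is bound. The 250 bases before the start are given for Ddx58 (chr4:40239826-40240075, minus), with the first match in capitals, and for Mavs (chr2:131233813-131234062, plus). Those of Mavs hold no such letters, and neither do those of Ifih1, Eif2ak2 or Adar, whose matches lay after the start. Among the members with a window, only Ddx58 had a match before its start, so it does not stand for the receptors here.
Ddx58 upstream: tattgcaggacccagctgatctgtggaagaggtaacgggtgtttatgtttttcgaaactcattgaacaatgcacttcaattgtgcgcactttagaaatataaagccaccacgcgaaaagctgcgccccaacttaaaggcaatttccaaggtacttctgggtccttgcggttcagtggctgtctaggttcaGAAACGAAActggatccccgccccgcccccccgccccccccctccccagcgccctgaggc
Mavs upstream: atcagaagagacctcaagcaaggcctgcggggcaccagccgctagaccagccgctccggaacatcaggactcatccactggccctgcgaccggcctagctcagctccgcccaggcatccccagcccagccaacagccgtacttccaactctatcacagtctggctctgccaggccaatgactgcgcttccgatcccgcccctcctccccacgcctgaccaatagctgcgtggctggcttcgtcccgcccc

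In the rest of the pathway more genes were lower than higher. Over 7 lists with 125 genes in the table, 97 were tested, of which 9 were higher (9.28%) and 25 lower (25.8%), beside 10.7% and 10.8% of all genes. Their median log2 fold change was -0.16. Upper-quartile scaling gave 12 higher and 15 lower in place of 9 and 25, and no gene called in these lists changed sign with the scaling. The counts were 5 higher and 12, 14 and 12 lower without WT replicate 1, 2 or 4.

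The list of signalling by the receptors and MAVS, which also holds cofactors of the receptors, had 28 tested genes. Of these, 4 were higher (14.3%) and 7 lower (25%), beside 10.7% and 10.8% of all genes. With 1 library left out, 3 to 5 were higher and 2 to 6 lower. Irf7, the interferon-induced factor that drives interferon transcription, had 404, 98.1, 122 and 150.4 normalised counts in WT and 3815, 1021, 1610.4 and 1348 in DKO. No library overlapped, and replicate 1 was the highest of both groups (log2 fold change 3.34, edgeR adjusted p = 0.00531). Ddx60, a helicase linked to RIG-I, rose from 39.7 ± 10.8 to 378 ± 237 normalised counts (SD, log2 fold change 3.24, adjusted p = 0.0031). Zcchc3, a cofactor of RIG-I and MDA5, and Chuk, an IκB kinase, rose by less (log2 fold change 0.48 and 0.44, adjusted p = 0.00828 and 0.0375). The lower genes included partners of MAVS. Tbk1, the kinase that MAVS recruits to phosphorylate IRF3, fell from 2056 ± 237 to 1315 ± 210 (log2 fold change -0.64, adjusted p = 0.0114). Traf6, a ubiquitin ligase bound by MAVS, the kinase Ikbkb and the autophagy receptor Tax1bp1 fell too (log2 fold change -0.55, -0.49 and -0.42, adjusted p = 0.0185, 0.0196 and 0.013). Irf3, the constitutive partner of Irf7, was named after its values were seen and had 4497 normalised counts in WT and 4517 in DKO (log2 fold change 0.01, adjusted p = 0.970).

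Among 20 tested negative regulators of the receptors and MAVS, 1 was higher (5%) and 5 were lower (25%). With 1 library left out 3 to 6 were lower, the lowest without WT replicate 4, and 3 were lower with a block for replicate number. Pcbp2, an RNA-binding protein that leads MAVS to degradation, rose (log2 fold change 0.40, edgeR adjusted p = 0.00734). Mfn2, a mitochondrial fusion protein that binds MAVS, fell from 2168 ± 228 to 1338 ± 86.9 (log2 fold change -0.70, adjusted p = 0.00359). The deubiquitinase Cyld and Tkfc, an inhibitor of MDA5, fell as well (log2 fold change -0.67 and -0.56, adjusted p = 0.0103 and 0.0179).

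The list around PKR and its substrate eIF2 had 17 tested genes, 2 of them higher (0 to 2 with 1 library left out) and 2 lower (1 to 3). Both shares were 11.8%, near the 10.7% higher and 10.8% lower of all genes tested. Ppp1r15a (GADD34), which brings a phosphatase to eIF2α, had 2098, 1874, 2187 and 2214 normalised counts in WT and 2996, 3227, 4058 and 8772 in DKO. All DKO libraries were above WT, and replicate 4, the DKO library with the lowest Eif2ak2, was by far the highest (log2 fold change 1.19, edgeR adjusted p = 0.0253). Eif2s2, the beta subunit of eIF2, was higher (0.42, adjusted p = 0.0248), while Eif2ak1, the heme-regulated eIF2α kinase of red cells, and Ppp1r15b, the constitutive phosphatase subunit, were lower (-0.46 and -0.34, adjusted p = 0.0121 and 0.0283). Of 14 tested proteins that bind or process duplex RNA in other ways, none was higher and 4 were lower (28.6%). Among the lower genes were Stau1, Drosha and Nkrf (log2 fold change -0.41, -0.36 and -0.55, edgeR adjusted p = 0.0242, 0.0345 and 0.0413). At an unadjusted p under 0.05 the numbers were 0 higher and 5 lower by edgeR, as they were at the adjusted threshold by DESeq2. With upper-quartile scaling, with a block for replicate number, or without WT replicate 1, 2 or 4, 0 of these 14 were called by edgeR, and 1 was lower without DKO replicate 2 and 2 without WT replicate 3, DKO replicate 3 or DKO replicate 4.

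Endosomal Toll-like receptors and their adaptors had 7 of 12 tested genes lower (58.3%) and none higher by edgeR, with 8 lower and 0 higher at an unadjusted p under 0.05 and 7 and 0 by DESeq2. With upper-quartile scaling or a block for replicate number, 5 were lower, and 5 to 7 with 1 library left out. Upper-quartile scaling gave 7 lower and 1 higher at an unadjusted edgeR p under 0.05. The list's median was -0.52 on the log2 scale, which was -0.41 with upper-quartile scaling. Ticam2, which links TLR4 to the adaptor TRIF, fell from 530.0 ± 99.9 to 142 ± 38.0 normalised counts (log2 fold change -1.90, edgeR adjusted p = 0.00257). Unc93b1, which carries the endosomal receptors out of the endoplasmic reticulum, fell from 2446 ± 217 to 926 ± 378 (-1.40, adjusted p = 0.00857). The transcription factor Irf5 and the endosomal transporter Slc15a4 fell also (-1.01 and -0.58, adjusted p = 0.0101 and 0.0108). Several of these genes are strongly expressed in myeloid cells, and the marker sums of such cells were lower in DKO as given below. The lineage cocktail of the sort included antibodies against CD11b and Ly6G/Ly6C, meant to remove cells that carry these proteins. Itgam, the gene of CD11b, had a mean of 547 normalised counts in WT and 77.4 in DKO. The part of myeloid cells in the decrease of this list was not tested. In the list of mitochondrial duplex RNA decay, Slirp and Grsf1, which encode RNA-binding proteins of the mitochondrial matrix, were higher (0.44 and 0.37, adjusted p = 0.0106 and 0.0311) and the other 4 of 6 genes did not pass. Of these, Lrpprc had a negative estimate just past the threshold (-0.30, edgeR adjusted p = 0.0505). By DESeq2 and with library size scaling, 1 gene of the list was lower. Only 1 gene of this list was higher with a block for replicate number, without WT replicate 1, 2 or 4, and also without DKO replicate 2 or 4, and 3 were higher without DKO replicate 1.

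**Figure D4:**
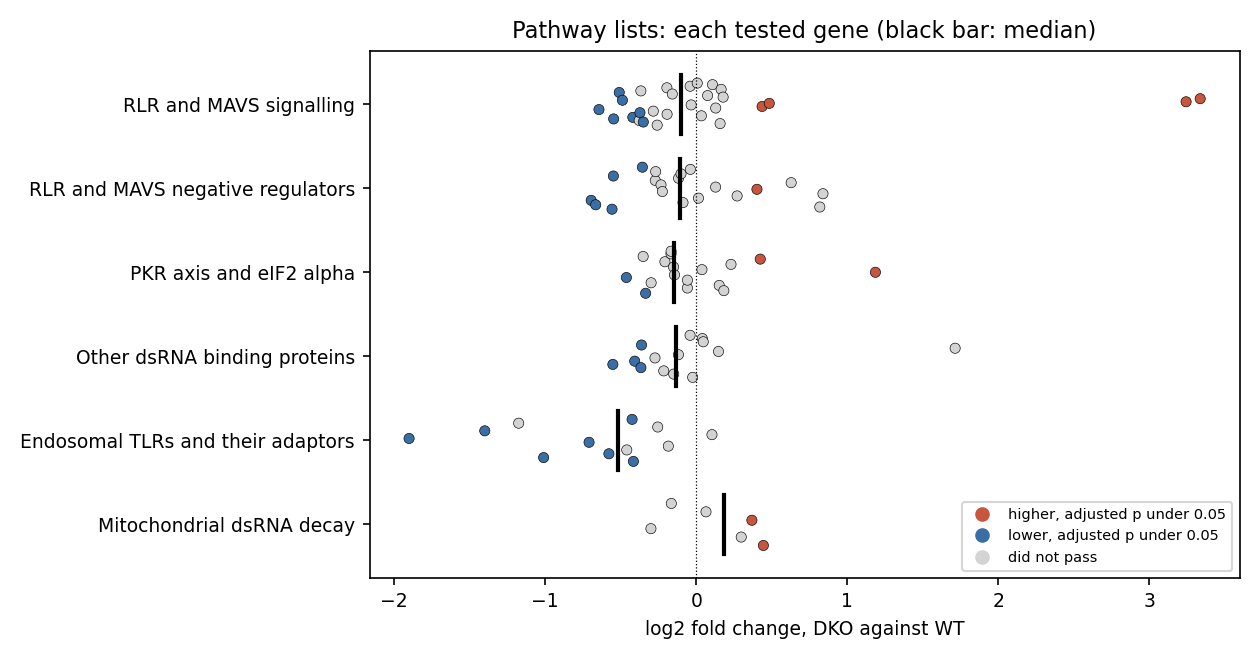
log2 fold change of DKO against WT for each tested gene of 6 pathway lists, with a black bar at the list's median and colour for the call at an adjusted p under 0.05. Irf7 and Ddx60 lie to the right of 3, and the endosomal receptor list has its median at -0.52.

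Interferon genes themselves were hardly seen. None of 21 interferon genes in the table had enough counts to be tested, and 16 were at 0 in all 8 libraries. Their counts summed to 7 to 11 in a WT library and 4 to 19 in a DKO library. Ifnb1, the interferon-β gene that MAVS signalling induces, had 14 counts in DKO replicate 3 and 0 in the other 7 libraries. Ifnk had 7, 11, 7 and 10 counts in WT and 0, 4, 5 and 17 in DKO, without separation of the groups.

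Genes with a profile like that of Ifih1 or Mavs were looked for by the root mean square difference of centred log2 values over the 8 libraries, among 12331 genes with a mean of at least 100 normalised counts. Closest to Ifih1 were Hist1h2be (difference 0.11), Trex1 (0.18), Gm10762 (0.18), B930036N10Rik (0.22) and Hist1h2bg (0.24), of which the histone genes have near-identical copies and uncertain counts. Trex1, a cytosolic DNA exonuclease, had 254, 139, 138 and 134 normalised counts in WT and 467, 446, 554 and 383 in DKO, and like Ifih1 it was highest in WT replicate 1 and DKO replicate 3. Among the members, Dhx58 (0.44), Adar (0.46) and Ddx58 (0.51) were nearest to Ifih1 and Mavs was at 1.28. Closest to Mavs were Cenpi (0.06), Klf10 (0.06), Mgat1 (0.06), Stat6 (0.07) and Irf2 (0.07). Irf2, a factor that restrains interferon-responsive promoters, had 2287, 2095, 1902 and 2334 normalised counts in WT and 1211, 1432, 1233 and 1520.3 in DKO.

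Markers of some cells other than erythroid precursors moved with the groups, while those of others overlapped. Summed over 10 neutrophil and monocyte markers, normalised counts were 103794 to 135267 in WT and 5399 to 45799 in DKO, with 5 of 8 tested markers lower (2 to 6 with 1 library left out) and most of the sum from Mpo. Macrophage markers summed to 2928 to 4253 in WT and 708 to 1835 in DKO (2 of 10 tested lower, 0 to 3 with 1 library left out), with Cd163 at 0 in all libraries and C1qa, C1qb, C1qc, Adgre1, Marco and Timd4 at 0 in at least 1. Most of the WT macrophage sum came from Csf1r, which did not pass (log2 fold change -1.63, edgeR adjusted p = 0.0961), and C1qa and C1qc had positive estimates that did not pass (0.78 and 0.47, adjusted p = 0.757 and 0.826). Plasmacytoid dendritic and lymphoid markers summed to 2445 to 3803 in WT and 96.7 to 888 in DKO (3 of 6 tested lower). All 3 sums were lower in every DKO library than in any WT library, the direction of Mavs and opposite to the receptors.

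Mesenchyme markers went the other way, from 2041 to 5769 in WT to 12996 to 45108 in DKO, with 7 of 8 higher. Neural markers ran from 242 to 309 in WT to 532 to 3394 in DKO, with 2 of 4 tested higher (1 with any 1 WT library or DKO replicate 4 left out or with a block for replicate number, and 3 without DKO replicate 2). Hepatoblast markers were abundant in both groups, 509407 to 705247 in WT and 170467 to 618857 in DKO, and none of the 9 passed by edgeR (4 lower at an unadjusted p under 0.05, and 4 by DESeq2). Endothelial markers (12783 to 13330 in WT, 8647 to 14763 in DKO), megakaryocyte markers (53473 to 61680 and 39841 to 114910) and erythroid markers (40381 to 82729 and 31360 to 98364) overlapped between the groups. DKO replicate 1 had the highest mesenchyme and neural sums and the lowest neutrophil and monocyte sum, and it was also the highest DKO library for Ddx58, Dhx58, Trim25, Eif2ak2, Tlr3 and Adarb1 and the lowest for Mavs, though not the highest for Ifih1 or Adar. Without DKO replicate 1 the same 4 members were higher and Mavs lower, with Ddx58 at 1.10 in place of 1.48 on the log2 scale, and the mesenchyme sums of the other DKO libraries, at 12996 to 21475, were still above those of WT. The part of these cells in the member results was not tested.

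**Figure D5:**
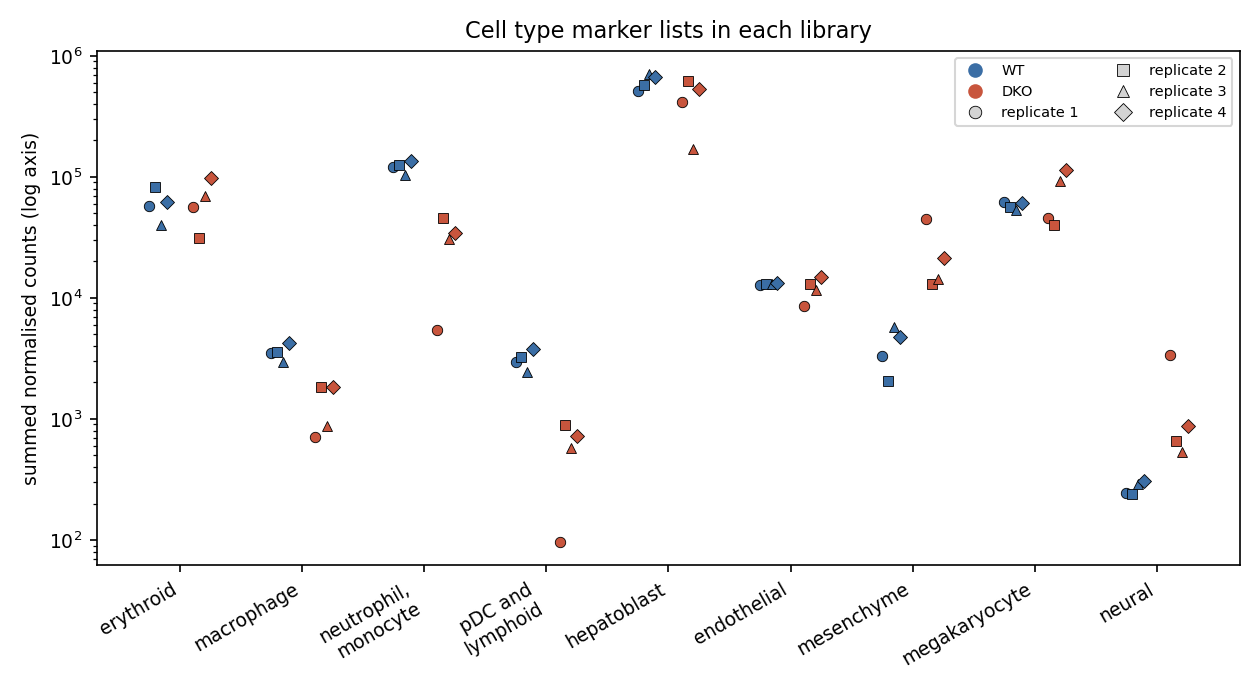
Summed normalised counts of the markers of 9 cell types in each library, on a log axis. Neutrophil and monocyte, macrophage, and plasmacytoid dendritic and lymphoid sums are lower in all DKO libraries, mesenchyme and neural sums are higher in all of them, and DKO replicate 1 lies at the end of the range for several lists.

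DKO replicate 3, the DKO library with Ddx3y and Xist counts near those of WT, lay above all 4 WT libraries for Ifih1, Ddx58, Dhx58 and Adar and below all of them for Mavs. Against the WT libraries its log2 fold changes were 2.04 for Ifih1, 1.38 for Dhx58, 1.16 for Adar, 0.80 for Ddx58 and -0.94 for Mavs. These values were taken after the data were seen, and a lone DKO library gives no test of the groups.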

How the data were processed

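RNAseq of S0 cells was analysed for 4 WT and 4 DKO libraries, grouped by the sample labels. The authors trimmed reads with fastp 0.21.0, mapped them to mm10 with HISAT2 2.2.1, removed alignments with a mapping quality below 20, and made the deposited whole-number counts per gene with StringTie 1.3.3b and prepDE, which derives counts from coverage. The deposited counts were neither normalised nor pooled. Of 52636 identifiers, 52489 matched a symbol without the version. Coordinates, exon lengths and overlaps come from GENCODE on GRCm38.

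Groups were compared with edgeR 4.0.16 under R 4.3.3 (filterByExpr, TMM, robust quasi-likelihood test, Benjamini-Hochberg adjustment over all 17378 genes tested, threshold 0.05). Normalised counts were scaled by each effective library size to the mean effective size. Ratios used a pseudocount of 0.5 counts and an exact permutation test in scipy 1.17.1. Alternatives were DESeq2 1.42.0, other scalings, filters and call rules, protein-coding genes only, a replicate block, each library left out, and a pseudocount of 5. The steps were tested on simulated data. Replicates of a group differed far beyond sampling noise (18.9 or more in chi-square per gene), so none was a copy. Depth limits genes with few counts, such as Tlr3 at 75 or fewer. WT and DKO libraries with the same replicate number in the sample titles did not deviate together.

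The members and lists were chosen with earlier results of these data known. Genes named were the members, Vps13a and Vps13c, up to 4 genes per list and direction with the smallest p, interferon genes with 10 counts or more, the 5 nearest genes to Ifih1 and to Mavs, and cell type markers, though some genes that the rule takes are not reported here. Experiments other than this RNAseq were not analysed here.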

Additional observations from a re-analysis of the deposited data

Results flagged for a closer look

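Each value below stood apart from the other 3 libraries of its group, by a gap past Dixon's critical value at the 95% level. Of 110 groups checked, 10 did so, and chance alone marks about 1 in 20. Among the members, WT replicate 1 had 650.3 normalised counts of Ifih1, where the other WT libraries had 460 to 483, and DKO replicate 4 had 2085 of Trim25, where the others had 2874 to 2943. WT replicate 1 also stood out for Irf7, at 404 normalised counts against 98.1 to 150.4, and for Trex1, at 254 against 134 to 139. Tkfc was at 1327 normalised counts in WT replicate 4, and Gm10762 was at 307 in DKO replicate 4. Ifnb1 had 17.1 normalised counts in DKO replicate 3 and 0 in the other libraries. Of the log2 ratios, DKO replicate 1 had 0.30 for Ddx58 to Mavs, where the others had -1.20 to -0.96, and -0.37 for Dhx58 to Mavs, where they had -1.24 to -1.09. WT replicate 2 had -1.04 for Ifih1 to Adar, where the others had -1.31 to -1.27.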

How the results depend on the processing

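The call of 4 members higher and 1 lower held under DESeq2, library size scaling, upper-quartile scaling, both other filters, protein-coding genes only and the replicate block. With a fold threshold added, 1076 genes were higher and 423 lower, with 0 members lower and 3 pathway genes each way. Upper-quartile scaling gave 1242 genes lower in place of 1878 and 15 pathway genes lower in place of 25. Libraries with the same replicate number in the sample titles were not paired by the data (correlations of deviations -0.10 to 0.05, and no WT library was nearest to its own number). The library names of DKO carry partly other numbers, and pairs by those names were not checked. The replicate block gave 1026 genes higher, 1083 lower and 13 pathway genes lower, with the members at 4 and 1. With each library left out, counts ran from 858 to 1915 genes higher, 898 to 2012 lower, 2 to 5 members higher, 1 to 1 lower, 5 to 11 pathway genes higher and 12 to 24 lower, and the cause was not tested. The 5 log2 ratios kept their sign under each alternative, though 3 against 4 libraries cannot reach a p under 0.0571 and 4 pairs cannot go under 0.125. Depth limits Tlr3, the interferon genes and the macrophage markers at or near 0.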

Other observations

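Other pathway genes passed the test but fell outside the naming rule, and are named here after their values were seen. In MAVS signalling, the scaffold genes Tank and Azi2, which hold TBK1, and Nfkb1 were lower in DKO (edgeR log2 fold change -0.37, -0.51 and -0.35, adjusted p = 0.0395, 0.0201 and 0.0321). The ubiquitin ligase Itch, which leads MAVS to degradation, was lower as well (-0.55, adjusted p = 0.0234). In the Toll-like receptor list, the kinase Irak4 (-0.71, adjusted p = 0.0299), the chaperone Cnpy3 (-0.43, adjusted p = 0.0257) and Ap3b1, a subunit of the AP-3 sorting complex (-0.42, adjusted p = 0.0114), were lower. Tlr7, a sensor of single-stranded RNA, had 104 normalised counts in WT and 46.1 in DKO (log2 fold change -1.18, adjusted p = 0.119) and did not pass. Prkra, an activator of PKR, did not pass either (-0.21, adjusted p = 0.386).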
